A study of Homo sapiens with 4 samples.

Results

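Serum response factor (SRF), its actin-sensing coactivators and a group of their cytoskeletal targets were examined in PANC-1 cells with and without CFL1. The 10 members were chosen by gene symbol: SRF, the coactivator genes MKL1 and MKL2 (also called MRTFA and MRTFB), and the targets ACTN1, FLNA, TAGLN, CNN1, CNN2, FHL1 and FHL2. All 10 were found among the 59885 genes of the authors' deposited table. PANC-1 is an established human pancreatic ductal adenocarcinoma line. The groups were 2 libraries of CFL1 knockout cells and 2 libraries of control cells that carried the same line name, with total RNA sequenced in both groups. The labels give no further treatment, no description of how the control cells were made, and no statement on whether the knockout is a clone or a pool. Nor do they say that libraries came from separate cultures, so the spread behind each p-value is that between libraries and could be technical.

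SRF is a transcription factor that binds a short A- and T-rich element, the CArG box, in the promoters of genes for actin and its partners. The MRTF coactivators bind actin monomers, which hold them in the cytoplasm; when monomers are drawn into filaments, the coactivators enter the nucleus and join SRF. CFL1 encodes cofilin-1, which severs actin filaments and so feeds the monomer pool that the MRTFs sense. A second class of SRF partners, the ternary complex factors, carries signals from growth factors to the immediate early genes.

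The promoters of the members are shown first, because a CArG box is what ties a gene to SRF by sequence. RefSeq windows of 300 bases, from 250 before to 50 after an annotated start (GRCh38.p14), were matched for 9 of the 10 members, TAGLN having no entry. An exact CArG box of 10 bases (searched by its consensus on both strands) was found in at least 1 window of 6 of these 9 members: SRF, ACTN1, FLNA, CNN2, FHL1 and FHL2. It was present in 8 of 32 member windows (25.0%), some of which overlap, against 1.29% of the 35116 windows in the table. Counted by gene, 1.60% of 27305 genes had such a box in any window. The members were chosen as SRF, its coactivators and its targets, so these shares describe the choice and cannot test a link to SRF. Overlapping FHL2 windows held the same box. The windows of MKL1, MKL2 and CNN1 held none, which says only that these letters are not in those windows. These windows are written 5′ to 3′ on the strand of the gene, with the boxes in capitals. SRF held a pair of boxes close to its own start, the nearer one beginning 10 bases upstream and the other 30.
SRF, chr6:43171019-43171318, plus strand: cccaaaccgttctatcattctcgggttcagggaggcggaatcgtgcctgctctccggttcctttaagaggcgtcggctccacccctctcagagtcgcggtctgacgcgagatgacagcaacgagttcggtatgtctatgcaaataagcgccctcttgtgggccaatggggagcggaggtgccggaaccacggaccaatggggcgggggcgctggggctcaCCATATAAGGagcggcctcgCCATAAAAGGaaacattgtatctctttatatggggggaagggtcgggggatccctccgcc
FLNA, chrX:154374585-154374884, minus strand: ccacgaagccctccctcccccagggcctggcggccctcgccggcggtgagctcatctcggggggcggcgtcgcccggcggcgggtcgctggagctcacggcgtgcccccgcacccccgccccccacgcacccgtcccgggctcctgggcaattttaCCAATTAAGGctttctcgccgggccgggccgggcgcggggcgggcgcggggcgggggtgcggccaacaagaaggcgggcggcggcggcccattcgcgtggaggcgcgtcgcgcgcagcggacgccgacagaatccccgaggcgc
CNN2, chr19:1026358-1026657, plus strand: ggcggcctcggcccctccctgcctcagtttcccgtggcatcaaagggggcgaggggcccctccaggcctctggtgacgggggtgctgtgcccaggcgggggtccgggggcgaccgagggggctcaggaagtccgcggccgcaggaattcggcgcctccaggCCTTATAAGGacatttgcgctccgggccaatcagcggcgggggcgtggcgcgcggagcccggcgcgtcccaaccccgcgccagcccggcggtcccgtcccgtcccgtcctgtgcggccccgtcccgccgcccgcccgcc
FHL2, chr2:105399002-105399301, minus strand: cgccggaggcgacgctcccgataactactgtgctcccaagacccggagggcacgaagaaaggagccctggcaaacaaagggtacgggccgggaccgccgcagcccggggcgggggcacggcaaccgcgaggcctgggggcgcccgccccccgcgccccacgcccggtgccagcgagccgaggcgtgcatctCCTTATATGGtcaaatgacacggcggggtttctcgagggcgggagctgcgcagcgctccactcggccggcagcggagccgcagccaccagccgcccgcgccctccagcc

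FLNA, CNN2 and FHL2 had their boxes beginning 94, 89 and 59 bases upstream of the start shown, and a window at another FHL2 start held a further box, 101 bases upstream. For ACTN1 and FHL1 the box lay in the window of 1 of several annotated starts, 171 and 126 bases upstream, and 70 bases around it are shown.
ACTN1, chr14:68977698-68977767, minus strand: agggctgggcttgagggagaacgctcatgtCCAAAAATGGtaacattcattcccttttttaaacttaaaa
FHL1, chrX:136196891-136196960, plus strand: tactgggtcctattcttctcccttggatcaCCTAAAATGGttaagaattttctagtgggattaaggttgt

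The deposited table gives no value for single libraries, so whole reads per library were recovered from its base means, and a normalized count is such a read count divided by the library's size factor. Recovered reads summed to between 14983865 and 17936045 per library. The letters A and B only name the libraries and do not map to the numbers in the labels. Control B was unlike the other 3 libraries. Across 17272 genes the correlation (Pearson's r on log2(normalized count + 1)) was 0.72, 0.72 and 0.73 between control B and knockout A, knockout B and control A, and 0.98 to 0.99 among those 3. The genes are not independent replicates. All 4 libraries carry the PANC-1 label, and whether control B came from the same cells as the others was not tested. This bears on every mean of the controls, on each fold change in the authors' deposited table and on each difference from control B, so every member is given against each control. CFL1 itself had 2285 and 2487 normalized counts in the knockouts, against 6276 in control A and 13761 in control B, and the log2 difference was -2.07 with an SE of 0.454, per the authors' deposited table (adjusted p 0.00168 by DESeq2).

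Cell type markers also differed in control B, but the genes of a list did not move together. All 7 ductal and epithelial markers had reads and summed to 21465 and 20345 normalized counts in the knockouts, against 28855 in control A and 55106 in control B. The sum rested mostly on KRT8 and KRT18. KRT19, a ductal keratin, was at 0 in both knockouts, at 1.82 in control A and at 2481 in control B. KRT7, another ductal keratin, ran the other way, with 4000 and 3683 in the knockouts, against 3551 in control A and 108 in control B, and MUC1 was also lowest in control B. All 7 smooth muscle and pericyte markers had reads and summed to 9015 and 9511 in the knockouts, against 6674 in control A and 588 in control B. NOTCH3 made up most of this sum outside control B, with 8311 and 8769 in the knockouts, against 6021 in control A and 81.6 in control B. CSPG4, in the same list, had 483 and 526 in the knockouts, against 431 in control A and 418 in control B. Of 8 fibroblast markers 7 had reads, LUM being at 0 throughout, and their sum was 1207 and 1078 in the knockouts, against 901 in control A and 1863 in control B. COL1A1 made up 1574 of the sum in control B, whereas PDGFRB had 439 and 451 in the knockouts, against 513 in control A and 6.71 in control B. Leukocyte and endothelial markers, 6 of 7 with reads, summed to 35.4 and 39.9 in the knockouts, 57.3 in control A and 1264 in control B. CD68 made up 1217 of the sum in control B, and PTPRC was at 0 in both controls and knockout B. CD14 had 8.85 and 9.71 in the knockouts, against 9.09 in control A and 36.9 in control B. The part of such differences in the values of the members was not tested. In bulk RNA, fewer cells of a kind and less RNA per cell cannot be told apart.

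No member passed the test. The authors' deposited table holds adjusted p values for 9 members, and DESeq2 called 0 of them at 0.05, against 0.559% of 16629 genes (0.138% that rose and 0.421% that fell), and the lowest adjusted p of a member was 0.503, that of FHL1. None had an unadjusted p under 0.05 in the authors' deposited table either, against 12.6% of those genes. CNN1, with a base mean of 9.16, had no adjusted p. The log2 fold change was below 0 for 8 members and above 0 for TAGLN and FHL2, and all 10 of the 95% intervals included 0. The members' median was -0.36, and -0.31 over the 9 with an adjusted p, against -0.03 over all genes tested.

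The sign of SRF, FLNA, CNN1, CNN2 and FHL1, 5 of 10 members, depended on which control was used. The share of all tested genes that did so was not computed. Against control A the mean of the knockouts was higher for 7 of 10 members, against 50.6% of tested genes, with differences of log2(normalized count + 1) from -0.09 for MKL2 to 0.36 for SRF and a median of 0.12. Against control B it was higher for 2 of 10 members, TAGLN and FHL2, against 50.2% of tested genes, with differences from -3.79 for CNN1 to 0.35 for TAGLN and a median of -0.73. Over all tested genes the median differences were 0.00 from control A and 0.01 from control B. Control B exceeded control A at 8 of 10 members, against 49.9% of tested genes. The comparisons with control A and control B share the knockout libraries.

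**Figure D1:**
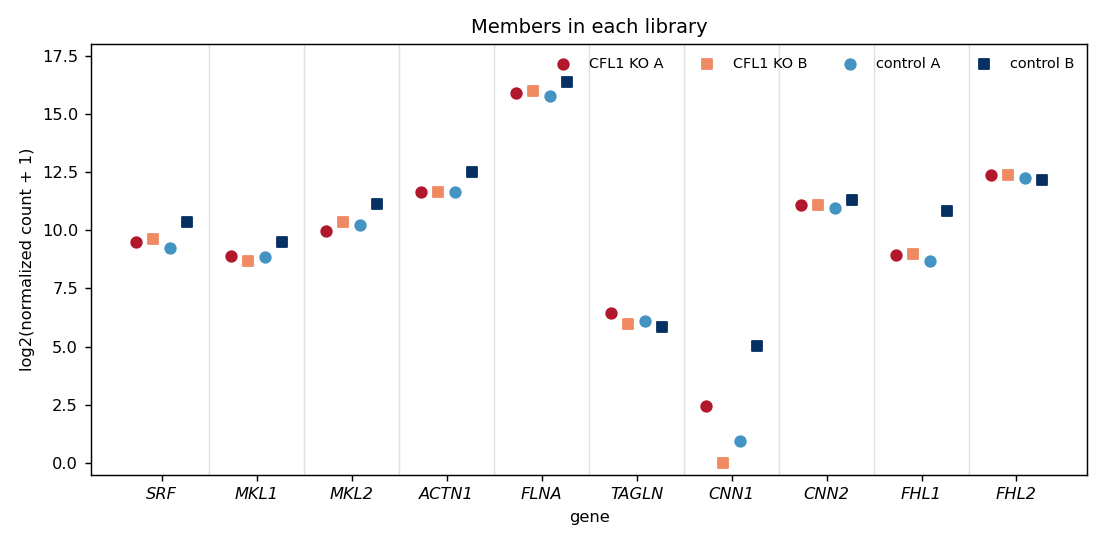
Log2(normalized count + 1) of the 10 members (x axis) in CFL1 knockout A and B and control A and B; each point is 1 library. Control B lies highest for 8 genes, FHL1 and CNN1 showing the widest gaps, and the other 3 libraries lie close together except at CNN1, whose counts are near 0.

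SRF, the factor itself, had 731 and 796 normalized counts in the knockouts, against 594 in control A and 1293 in control B. Both knockouts lay between the controls, as at 4 of 10 members (SRF, FLNA, CNN2 and FHL1), against 29.7% of tested genes. The mean was 764 ± 45.6 in the knockouts and 944 ± 494 in the controls (SD, n = 2 each). The authors' deposited table gives SRF a log2 fold change of -0.31 with an SE of 0.473 (adjusted p 0.780 by DESeq2), with an interval from -1.23 to 0.62. The knockout mean was 1.28-fold that of control A and 0.590-fold that of control B.

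The coactivator genes differed little from control A and more from control B. MKL1 had 477 and 407 normalized counts in the knockouts, against 464 in control A and 712 in control B. MKL2 had 1004 and 1291 in the knockouts, against 1213 in control A and 2222 in control B. In both genes 1 knockout lay above control A and the other below it, so the groups overlapped. Their log2 fold changes, per the authors' deposited table, were -0.41 (SE 0.358) and -0.58 (SE 0.413), with DESeq2 adjusted p of 0.625 and 0.550. At MKL2 the log2 gap between the knockouts was 0.36, which 7.41% of the 11599 genes whose base mean reached 100 exceeded. Of the reads of the pair, MKL2 held 67.8% in knockout A and 76.0% in knockout B, against 72.3% in control A and 75.7% in control B. The knockouts differed from each other in this share by more than the controls did.

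The knockout means of the actin crosslinker genes ACTN1 and FLNA lay -0.01 and 0.15 from control A, and -0.85 and -0.43 from control B, on the log2 scale. ACTN1, which encodes alpha-actinin-1 and bundles filaments at adhesions, had 3157 and 3182 normalized counts in the knockouts, against 3187 in control A and 5734 in control B. Both knockouts were below both controls, with a mean 0.995-fold that of control A. ACTN1 was the 1 member of 10 in which both knockouts lay lower, against 21.3% of tested genes. The log2 difference was -0.49 with an SE of 0.374, per the authors' deposited table (adjusted p 0.580 by DESeq2), with an interval from -1.23 to 0.24. FLNA, which encodes filamin A and joins filaments into networks, was the most abundant member. It had 61358 and 64027 normalized counts in the knockouts, against 56401 in control A and 84403 in control B, so the knockouts lay between the controls. The authors' deposited table gives FLNA a log2 fold change of -0.17 with an SE of 0.279 (adjusted p 0.796 by DESeq2), with an interval from -0.71 to 0.38.

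Of the calponin family, CNN2 was abundant, and CNN1 and TAGLN were the members of lowest level; none passed the test. CNN2, the calponin of non-muscle cells, had 2204 and 2166 normalized counts in the knockouts, against 2000 in control A and 2505 in control B. The knockouts lay between the controls, and CNN2 had a log2 fold change of -0.04 with an SE of 0.227, per the authors' deposited table (adjusted p 0.933 by DESeq2), with an interval from -0.49 to 0.40. CNN1, the calponin of smooth muscle, had 5 reads in knockout A and 0 in knockout B, against 1 read in control A and 28 in control B. The exact Poisson 95% interval, in normalized counts, ran from 0 to 3.98 in knockout B, against 20.8 to 45.2 in control B, and covers counting error only. A read floor of 3, a fixed setting and not the upper end of that interval, is 3.24 normalized counts in knockout B. The count of control B was the highest, and those of the other libraries were 5 or fewer. The authors' deposited table lists -2.83 for CNN1 on the log2 scale (SE 2.22), and without control B the limma difference was 0.29.

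TAGLN, which encodes the smooth muscle protein transgelin, had 85.0 and 62.5 normalized counts in the knockouts, against 67.3 in control A and 57.0 in control B. The groups overlapped, and the authors' deposited table gives TAGLN a log2 fold change of 0.25 with an SE of 0.488 (adjusted p 0.825 by DESeq2). Exons of TAGLN share 446 bases with PCSK7 on the opposite strand in GENCODE 29, and the strand setting of the counting is not given in the sources used here, so reads of the 2 genes may not be told apart. PCSK7 had a base mean of 1039, against 68.0 for TAGLN, which bears on every TAGLN value given here. Exons of FHL2 share 122 bases with AC108058.1 on the opposite strand, at base means of 5000 and 364. There were also 11 genes named as pseudogenes of CNN2 or of other members, with a base mean of at most 2.02, which could share reads with those members.

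Of the LIM-only genes, FHL1 lay far lower in the knockouts than in control B, and FHL2 lay slightly higher in the knockouts than in either control, without passing the test. FHL1, best known from skeletal and heart muscle, had 491 and 505 normalized counts in the knockouts, against 404 in control A and 1799 in control B. The knockouts lay between the controls, which differed 4.45-fold, a gap that 13.2% of 11599 genes exceeded, while the log2 gap between the knockouts was 0.04. FHL1 had a log2 fold change of -1.15 with an SE of 0.730, per the authors' deposited table (adjusted p 0.503 by DESeq2), with an interval from -2.58 to 0.29. FHL2, a cofactor that binds SRF and is itself an SRF target, had 5231 and 5339 normalized counts in the knockouts, against 4893 in control A and 4538 in control B. It was the 1 member of 10 in which both knockouts lay higher, against 23.9% of tested genes. The log2 difference was 0.16 with an SE of 0.162, per the authors' deposited table (adjusted p 0.664 by DESeq2), with an interval from -0.15 to 0.48, the narrowest of the members.

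**Figure D2:**
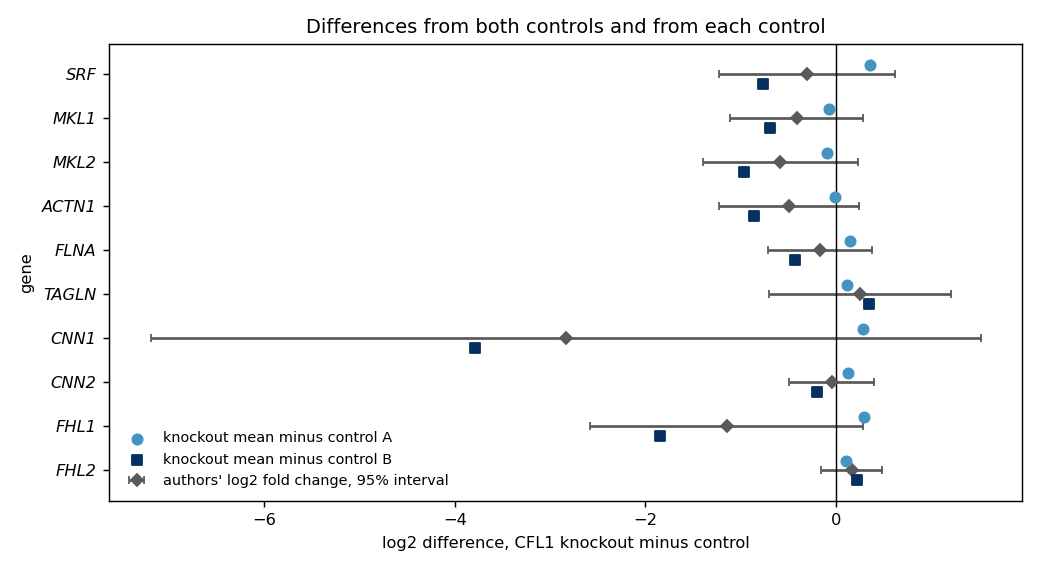
Log2 differences of CFL1 knockout from control for the 10 members (y axis): diamonds are the authors' fold changes with 95% intervals, circles the knockout mean minus control A and squares the knockout mean minus control B. All 10 intervals include 0, the circles lie between -0.09 and 0.36, and the squares reach -1.85 at FHL1 and -3.79 at CNN1.

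Leaving out 1 control changed these results. With limma on the recovered reads without control A, which leaves control B as the lone control and assumes that it varies as the knockouts do, 3 of 10 members had an adjusted p under 0.05, against 33.5% of 24955 genes. The 3 were SRF at -0.76 (limma adjusted p 0.0479), ACTN1 at -0.85 (0.0263) and FHL1 at -1.85 (0.0263), all lower in the knockouts, against 16.2% of those genes that were called and lower. Without control B, which leaves control A as the lone control, SRF, FLNA, CNN1, CNN2 and FHL1 had differences above 0, at 0.36, 0.15, 0.29, 0.13 and 0.30. With all 4 libraries limma called no member, at adjusted p from 0.721 to 0.962. That fit called 0 of the 24955 genes, so the lack of calls is not particular to the members. Groups of 2 against 2 cannot go below an exact permutation p of 0.333 for a single gene.

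Scaled to the length of the longest transcript in GENCODE 29, the level of the members fell into an order with overlapping neighbours. FLNA led with 7205 and 7518 normalized counts per kilobase in the knockouts, against 6623 in control A and 9911 in control B, above every other member in every library. FHL2, CNN2 and ACTN1 followed at 676 to 1227 per kilobase over the 4 libraries, and their ranges overlapped. FHL1, SRF, MKL2 and MKL1 lay between 90.2 and 625 per kilobase, with overlapping ranges. TAGLN, at 17.3 to 25.8, and CNN1, at 0 to 16.9, were lowest, and did not overlap with each other.

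Paralogs showed how far control B differed in the make-up of these families. ACTN1 held 29.3% of the reads of ACTN1 and ACTN4 in knockout A (exact 95% interval 28.5 to 30.2) and 30.5% in knockout B (29.6 to 31.5), against 28.1% in control A (27.3 to 28.9) and 14.3% in control B (13.9 to 14.6). FHL2 held 91.4% of the reads of FHL1 and FHL2 in each knockout, against 92.4% in control A and 71.6% in control B. In both pairs control B was the library that stood apart, and the knockouts and control A differed by at most 3 percentage points. TAGLN held 1.49% and 1.19% of the reads of TAGLN and TAGLN2 in the knockouts, against 1.42% in control A and 0.542% in control B. For CNN2 and CNN3 the share of CNN2 was 73.2% and 71.2% in the knockouts, against 71.9% in control A and 79.6% in control B. These are shares of reads, not of molecules, because the genes differ in length, and the intervals cover counting error only.

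**Figure D3:**
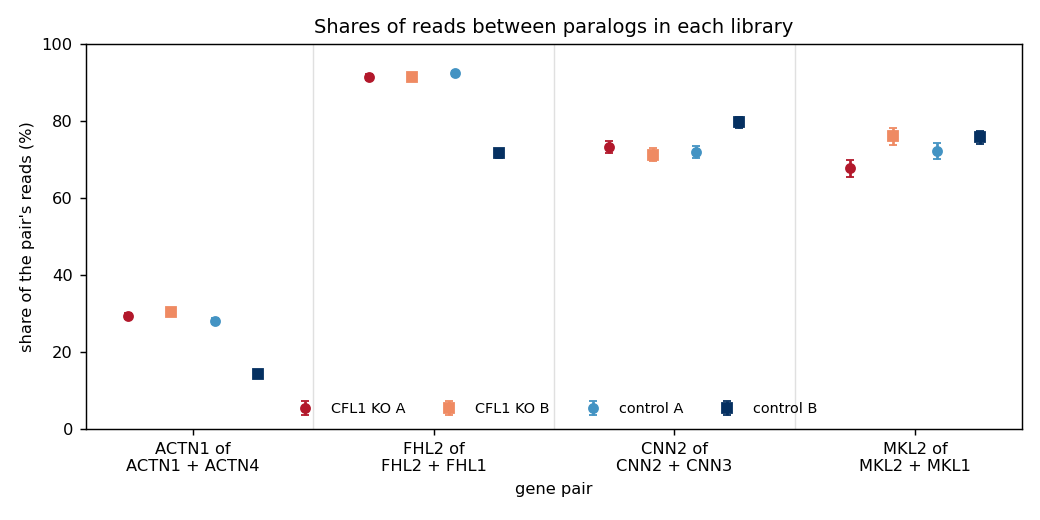
Share of the reads of a gene pair (y axis, %) that belonged to the first gene, for 4 pairs in CFL1 knockout A and B and control A and B; bars are exact 95% binomial intervals. The share of FHL2 is 71.6% in control B against 91.4% to 92.4% elsewhere, and the share of ACTN1 is also lowest in control B.

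None of the 5 paralogs with an adjusted p passed the test, and 2 had an unadjusted p under 0.05 in the authors' deposited table, both lower. ACTN4, the other non-muscle alpha-actinin, had 7601 and 7241 normalized counts in the knockouts, against 8150 in control A and 34476 in control B. TAGLN2, the transgelin of epithelial and other non-muscle cells, had 5624 and 5173 in the knockouts, against 4685 in control A and 10457 in control B. CNN3 had 806 and 875 in the knockouts, against 781 in control A and 640 in control B. FHL3 had 197 and 192 in the knockouts, against 121 in control A and 199 in control B. ACTN4 was below both controls in each knockout, but its knockout mean lay -0.14 from control A on the log2 scale, against -2.22 from control B.

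Of 17 tested genes in the list of actin-sensing upstream regulators 0 passed, and their median log2 difference per the authors' deposited table was 0.07. In 3 both knockouts were above both controls, and in 3 both were below. These shares, 17.6% each, stand against 23.9% and 21.3% of tested genes. RHOA, the GTPase that drives filament assembly, had 11134 and 11325 normalized counts in the knockouts, against 10581 in control A and 10180 in control B, with a log2 fold change of 0.11 per the authors' deposited table (adjusted p 0.741 by DESeq2). RHOB, its stress-responsive relative, had 11250 and 10460 in the knockouts, against 6327 in control A and 1361 in control B, and the authors' deposited table lists 0.365 as its DESeq2 adjusted p. The ternary complex factors, which compete with the MRTFs for SRF, had 0 called genes of 3 tested. ELK4 had 2552 and 2969 normalized counts in the knockouts, against 2470 in control A and 2836 in control B. ELK3 had 997 and 1117 in the knockouts, against 890 in control A and 2594 in control B.

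The medians of contractile and of actin and adhesion targets lay close together against control A and far apart against control B, a difference that was not tested. Of 11 tested contractile targets 0 were called, and the median log2 difference of the knockout mean was -0.15 from control A but 2.70 from control B. In 4 of the 11 both knockouts were above both controls, 36.4% against 23.9% of tested genes. In 1 both were below, 9.09% against 21.3%. CALD1, which encodes caldesmon, had 8904 and 8905 normalized counts in the knockouts, against 10680 in control A and 729 in control B. TPM1, a tropomyosin gene, had 3858 and 3674 in the knockouts, against 3680 in control A and 2840 in control B. Of 26 actin and adhesion targets 0 were called, with median differences of 0.01 from control A and -0.86 from control B, and 11 were below both controls in each knockout, 42.3% of the list against 21.3% of tested genes. ACTB, beta-actin, was among them, with 39247 and 39053 normalized counts in the knockouts, against 53197 in control A and 65961 in control B, and a log2 fold change of -0.61 with an SE of 0.201, per the authors' deposited table (adjusted p 0.153 by DESeq2). ACTG1, gamma-actin, had 43002 and 39098 in the knockouts, against 30744 in control A and 87846 in control B, so its groups overlapped. ANKRD1, singled out after its values were seen, stood at a DESeq2 adjusted p of 0.0511, per the authors' deposited table, with 14.2 and 4.31 normalized counts in the knockouts, against 23.6 in control A and 648 in control B.

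Immediate early SRF targets were the list with a called member. Of 10 tested genes 1 rose, 0 fell and 9 were not called, against 0.138% of tested genes that rose. EGR1, a zinc finger factor induced within minutes by growth signals, had 1279 and 1507 normalized counts in the knockouts, against 605 in control A and 658 in control B. The log2 difference was 1.14 with an SE of 0.225, per the authors' deposited table (adjusted p 0.000384 by DESeq2), and both knockouts exceeded both controls. The recovered reads gave EGR1 a difference of 1.14 by limma with all 4 libraries, at an adjusted p of 0.721 (unadjusted 0.0108). That fit called 0 of 24955 genes, so every DESeq2 call was lost there, not only that of EGR1. Over all limma and voom settings its difference lay between 1.02 and 1.25, with no adjusted p lower than 0.0601. Of the 10 genes, 7 were above both controls in each knockout, against 23.9% of tested genes. The list's median log2 difference was 0.93 from control A and 0.39 from control B. Against control B its genes ran from -4.83 for FOSL1 to 5.38 for NR4A1. By DESeq2, 4 of its genes rose and 2 fell at an unadjusted p under 0.05, which 12.6% of tested genes reached in either direction. Those that fell were FOSL1 and IER3. FOSL1 had 90.3 and 73.3 normalized counts in the knockouts, against 78.2 in control A and 2344 in control B. IER3 had 1223 and 1416 in the knockouts, against 1029 in control A and 7989 in control B. DUSP1, a phosphatase gene, had 3806 and 4194 in the knockouts, against 2566 in control A and 3397 in control B. MCL1, which encodes a survival protein, had 7346 and 8476 in the knockouts, against 6505 in control A and 11461 in control B. For DUSP1 and MCL1 the authors' deposited table lists DESeq2 adjusted p of 0.471 and 0.831.

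**Figure D4:**
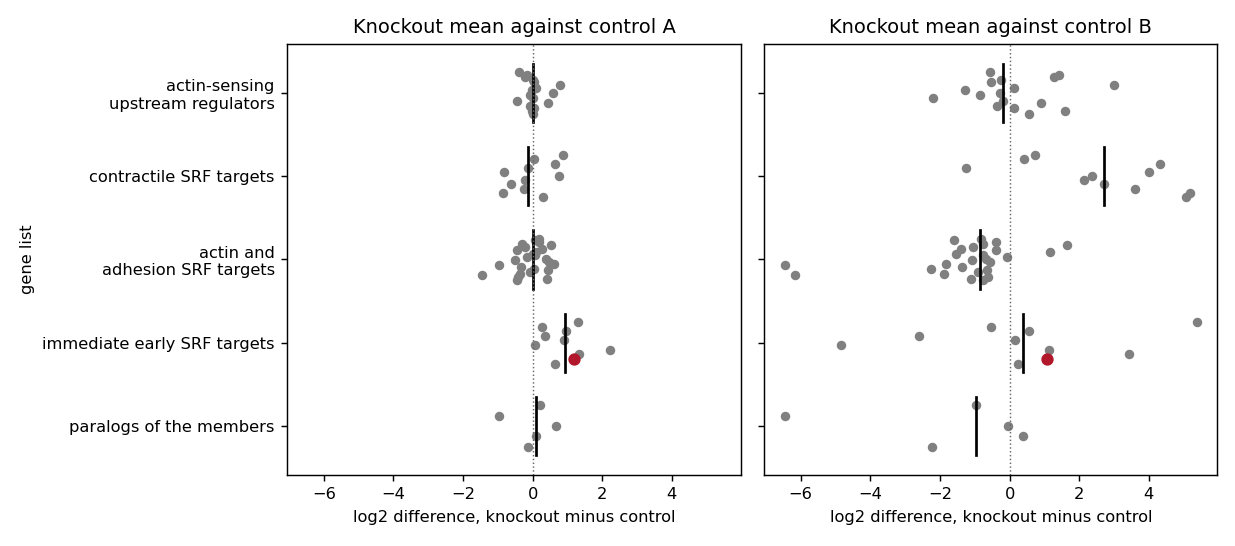
Log2 difference of the knockout mean from control A (left) and control B (right) for the tested genes of 5 lists (y axis); each point is 1 gene, the vertical bars are list medians, and the larger red point is EGR1, the 1 called gene. Contractile targets have a median of -0.15 on the left and 2.70 on the right, while the medians of immediate early targets, 0.93 and 0.39, are above 0 in both. Single immediate early targets on the right run from -4.83 to 5.38.

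The genes whose profile over the 4 libraries lay nearest that of SRF were DOT1L, ITPKB and HK2, at Euclidean distances of 0.04, 0.06 and 0.06 between centred log2 profiles, among 11599 genes whose base mean reached 100. DOT1L had 839 and 894 normalized counts in the knockouts, against 661 in control A and 1434 in control B. Of the other 7 members at that base mean, ACTN1 came nearest SRF, at rank 638, followed by FLNA at 1128 and MKL2 at 1273, and FHL2 was farthest at 5646. The profile has 4 points, of which control B stands apart.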

How the data were processed

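Illumina RNA sequencing of 2 CFL1 knockout and 2 control libraries was done, per the labels' protocols. Tools and build in the submitters' processing notes are RSEM, STAR, cutadapt and FastQC with hg19, without versions. The data are 1 result table that the authors made with DESeq2. The deposited base mean, a signal, averages size-factor-scaled counts over the 4 libraries. The fold change and its standard error are deposited on the log2 scale, the Wald score is deposited as their ratio, and the deposited p-value columns are unadjusted and adjusted.

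A base mean printed to 15 digits is a sum of whole reads times 4 steps, the steps being the base means of genes with 1 read. Divisions of reads that gave the printed base mean were listed. Those whose negative binomial fit, at the dispersion that gives the deposited standard error, returned the deposited fold change were kept (tolerance 1e-05 log2, 5e-07 from a base mean of 1000 and 2e-08 from 10000), or, where all divisions could be listed or 1 group held no read, a single solution. This gave reads for 30793 of 30831 genes (99.9%) and for all 10 members. For FLNA 158 divisions gave the base mean and 1 of them the fold change, the next missing it by 2.18e-07. RSEM estimates counts, so these reads are its rounded estimates.

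Calls are the authors' adjusted p under 0.05. limma 3.58.1 (R 4.3.3) used a trended prior and log2(normalized count + 1), over the 24955 genes whose mean reached 1. A difference on this scale understates changes of low genes. Read recovery (base means from 10 to 10000) and limma were tested on simulated data. All 300 genes simulated for recovery were kept with the right reads. Above a base mean of 10000, 3 of 100 deliberately altered base means also gave a solution. Of the named genes FLNA, ACTB, ACTG1, ACTN4, RHOA, KRT8 and KRT18 lie there. With limma, 70 of 100 simulated 2-fold genes were found, but the simulated controls shared a common mean, unlike the real ones. That test therefore says nothing of the power of limma in these data. Python 3.11.15, numpy 2.4.6, pandas 2.3.3, scipy 1.17.1 and matplotlib 3.10.9 were used. Named genes are CFL1, the members, their paralogs with a base mean of at least 100, up to 3 called genes per direction and the 2 of highest base mean in each other list, and the 3 nearest SRF. ANKRD1, FLNC, FOSL1, IER3 and NR4A1 were named after their values were seen. KRT7, KRT19, MUC1, LUM and PTPRC are also named outside this rule. Members and lists were chosen with earlier results of these data known. PECAM1 and protein sequences were not analysed here, and 1 paralog is not reported here.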

Additional observations from a re-analysis of the deposited data

How the results depend on the processing

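No paired analysis was possible because the deposited table has no columns of single libraries that carry the replicate numbers. No member was called under any setting with all 4 libraries; leaving out 1 library gave from 0 to 3 called members, the 3 being SRF, ACTN1 and FHL1 without control A. Of all genes, 93 were called. Dropping the independent filter, requiring a base mean of 10 or of 100, or lowering the threshold to 0.01 kept the count within 1.5 times. An unadjusted p under 0.05 gave 2349 genes. On the recovered reads limma called 0 with pseudocounts of 1, 0.1 and 10, with a mean of at least 10 and with TMM scaling, and voom called 0 (503, 480, 527, 267, 502 and 441 at an unadjusted p under 0.05). Calls ran from 0 to 8352 when a library was left out, the 8352 without control A. At an unadjusted p under 0.05 the upstream, contractile, adhesion, immediate early and paralog lists had 4, 3, 10, 6 and 2 genes. These lists held 19, 14, 26, 13 and 8 genes with reads, and 12.6% of tested genes reached that p. The contractile count includes a gene without an adjusted p. With base means of at least 100 the adhesion list had 1 call, ANKRD1.

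Leaving out 1 library moved the log2 difference of SRF from -0.76 to 0.36, of FLNA from -0.43 to 0.15, of CNN1 from -3.79 to 0.29, of CNN2 from -0.20 to 0.13 and of FHL1 from -1.85 to 0.30, each value above 0 being the one without control B. MKL1 (-0.69 to -0.08), MKL2 (-0.96 to -0.09), ACTN1 (-0.85 to -0.01), TAGLN (0.01 to 0.45) and FHL2 (0.11 to 0.22) kept their sign but not their size. The value nearest 0 was the one without control B, except for TAGLN, where it was the one without knockout A. CNN1 ranged from -3.06 to -0.82 with pseudocounts of 0.1 and 10, and could not be fitted with a mean of at least 10. Allowing 1 mismatch in the CArG box left 6 members with a match, but 22.3% of all genes then had one. Depth limits CNN1, with at most 28 reads in a library, and TAGLN, with at most 96.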
